A study of Mus musculus with 2 samples.

Results

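Endothelial barcodes with a high mitochondrial share are droplets of the mouse liver library labelled E18.5 that carry endothelial transcripts and draw at least 25% of their UMIs (unique molecular identifiers, each standing for 1 captured RNA molecule) from the 13 mitochondrially encoded mRNAs. A barcode was taken when it held at least 200 genes and 500 UMIs, at least 2 UMIs summed over Stab2, Ptprb, Kdr, Flt1, Gpr182 and Egfl7, no UMI of the B cell gene Cd79a and no UMI of the T cell genes Cd3d, Cd3e and Cd3g. This rule found 1298 barcodes, out of 9871 in the library and 19642 in the series, and they are called high barcodes here. They were compared, on UMIs outside the mitochondrial genes, with the 1206 barcodes that passed the same gate under 25%, called low barcodes. Both the mitochondrial share and the 6 gate genes chose the barcodes, so their values are given as a description.

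The series holds droplet-based 3′ single-cell RNA libraries of 2 mouse livers, 1 labelled E18.5 (an embryonic day) and 1 labelled p180 (a postnatal day). Both livers came from Hhex knockout hosts (Hhex is a homeobox gene needed for liver formation) that were injected with tetraploid embryonic stem cells, 4N-ESCs, positive for the red fluorescent protein tdTomato, as blastocysts, and were kept under normal husbandry. High and low barcodes share this genotype, injection, age label and liver, and no diploid liver was analysed here. With 1 library, barcodes are not replicates, so no test was made and no p-value is given; the 95% intervals cover counting error only. Which barcodes came from host and which from injected cells was not analysed here. In the same library 1286 barcodes passed a gate for B cells and 445 one for T cells. Mature lymphocytes are features of adult rather than fetal liver, so this makeup would run against the stage label if these cells are mature. The 2 gates did not test maturity, and the library is called by its label throughout. The libraries share 28 barcode sequences, 4 of them among the high barcodes.

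Liver sinusoids are lined by a fenestrated endothelium that takes up waste macromolecules through scavenger and lectin receptors such as stabilins and the mannose receptor. Endothelium of the central veins secretes Wnt ligands and Rspo3, and larger vessels carry von Willebrand factor. Mitochondrial mRNAs stay inside the organelle while most other mRNAs lie in the cytosol or nucleus, and a high mitochondrial share of UMIs is a common reason to leave a barcode out of single-cell work.

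The label was set beside its markers and beside genes that the gate did not use. Stab2, a scavenger receptor of the sinusoid, was found in 55.9% of high barcodes and 48.7% of low barcodes. Ptprb, the vascular endothelial phosphatase, was found in 84.2% of high and 90.6% of low barcodes, Kdr, the main VEGF receptor, in 48.4% of high and 74.0% of low barcodes, and Flt1, the other VEGF receptor of the gate, in 35.4% of high and 78.7% of low barcodes. These 4 genes helped to choose the barcodes, so their shares are a description and no check of the label. Among genes that the gate did not use, Cdh5, the endothelial cadherin, was found in 25.6% of high and 69.7% of low barcodes. It was found in 3.87% of the 1007 barcodes at 25% or more that failed the gate, and in 1.59% of the 1255 B cell barcodes under 25%. Tek, the angiopoietin receptor, was found in 26.4% of high, 70.1% of low, 4.57% of those failed and 0.16% of those B cell barcodes. Pecam1, a junction adhesion molecule, was found in 27.8% of high, 73.3% of low and 11.5% of the failed barcodes. In the B cell barcodes Pecam1 was more frequent than in high barcodes, at 63.7%. Median depth outside mitochondrial genes was 529 UMIs in high, 421 in the failed, 3052 in low and 4428 in B cell barcodes. The shares that are lower in high than in low or B cell barcodes thus stand at a lower depth.

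High barcodes held about as many mitochondrial UMIs as low barcodes and far fewer UMIs of nuclear genes. The median was 426 mitochondrial UMIs in high barcodes (quartiles 342 and 524.5) and 411 in low barcodes (quartiles 315 and 520.5). Outside mitochondrial genes the median was 529 UMIs in high barcodes (quartiles 367 and 798), against 3052 in low barcodes (quartiles 1803 and 5475), a 5.77-fold lower median. High barcodes carried a median of 417 genes and low barcodes 1752.5. Each of the 13 mitochondrial mRNAs kept nearly the same count per barcode, from 0.93 times the low value for mt-Co1, a cytochrome c oxidase subunit, at 44.3 UMIs in high and 47.5 in low barcodes, to 1.07 times for mt-Nd4l, a complex I subunit, at 5.37 in high and 5.03 in low barcodes. mt-Atp6, an ATP synthase subunit, averaged 106.9 UMIs in high and 104.2 in low barcodes and made up 23.7% of the mitochondrial UMIs in high and 23.6% in low barcodes. The groups thus lay apart in the UMIs of nuclear genes. The minimum of 500 UMIs bears on this by construction, since a barcode with few other UMIs passes it only with many mitochondrial ones.

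**Figure D1:**
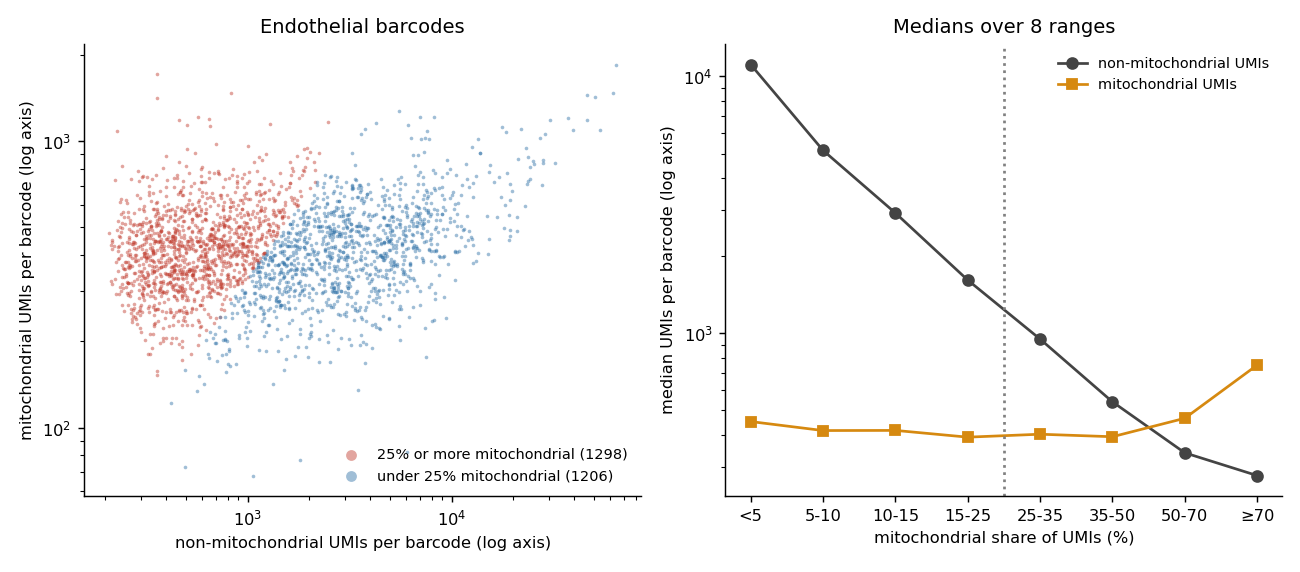
Left, each point is an endothelial barcode of the library labelled E18.5, with UMIs outside mitochondrial genes on the x axis and mitochondrial UMIs on the y axis (both log), in red at 25% or more and in blue under 25%. Right, medians of both quantities over 8 ranges of mitochondrial share (log y axis, dotted line at 25%): mitochondrial UMIs lie between 393 and 465.5 in the 7 ranges under 70%, while the others fall to 278.5 in the last range.

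Over 8 ranges of mitochondrial share (under 5, 5 to 10, 10 to 15, 15 to 25, 25 to 35, 35 to 50, 50 to 70, and 70% or more), the median of mitochondrial UMIs was 452, 417, 417.5, 393, 403.5, 394.5, 465.5 and 750. The median of other UMIs was 11107, 5144, 2934, 1608, 947, 539.5, 341.5 and 278.5 in the same ranges. The last range holds 16 barcodes. There was no gap at the boundary: the 73 barcodes from 25 to 27% had a median of 1099 UMIs outside mitochondrial genes and 381 mitochondrial UMIs, and the 72 barcodes from 23 to 25% had 1187.5 and 384. In these neighbours Gm42418 stood at 22188 CPM (UMIs per 1000000 UMIs outside mitochondrial genes) just inside and 19947 CPM just outside the limit, and Stab2 at 2136 CPM inside and 1990 CPM outside.

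The endothelial gate passed 56.3% of all barcodes with the 200 genes and 500 UMIs of the rule (quality barcodes) at 25% or more (1298 of 2305, exact binomial interval 54.3 to 58.3%) and 25.5% of those under 25% (1206 of 4721, 24.3 to 26.8%). With each barcode thinned to 300 UMIs outside mitochondrial genes before the gate, the gate passed 48.8% at 25% or more (46.5 to 51.0%) and 16.0% under 25% (757 of 4721), with 378 shallower barcodes left out at 25% or more and 0 under it. Seen the other way, 51.8% of endothelial barcodes lay at 25% or more, against 32.8% of all quality barcodes of this library, 2.41% of B cell barcodes (31 of 1286) and 2.47% of T cell barcodes (11 of 445). In the library labelled p180 the same gate passed 46 barcodes at 25% or more and 285 under it, so 13.9% of its endothelial barcodes were high, against 1.26% of all its quality barcodes. Over the 8 ranges the share of quality barcodes that passed the gate was 14.1, 19.3, 24.7, 51.9, 60.2, 61.4, 50.2 and 25.8%.

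The gate of 2 UMIs weighs differently on barcodes of different depth, and low barcodes held more UMIs of several other cell types. The cholangiocyte list (bile duct markers) summed to 136 CPM in high and 2756 CPM in low barcodes, where 25 barcodes drew over 1% of their UMIs from it, against 0 of the high ones; Cldn4 was at 0 in high barcodes. The monocyte list summed to 216 CPM in high and 1230 CPM in low barcodes, the mesenchymal list to 182 CPM in high and 705 CPM in low barcodes, and the neutrophil list to 696 CPM in high and 1786 CPM in low barcodes. Macrophage markers stood at 145 CPM in high and 216 CPM in low barcodes, and the T cell, NK cell and platelet lists stood under 50 CPM in both. The dendritic list summed to 480.1 CPM in high and 329 CPM in low barcodes, with Cd209a, Siglech and Ccl22 at 0 in high barcodes. Therefore each comparison is given a second time with the 6 gate genes at 0.3% or more of the UMIs outside mitochondrial genes (the 0.3% gate), which kept 1276 high (98.3%) and 1021 low barcodes (84.7%). There the cholangiocyte list stood at 139 CPM in high and 71.2 CPM in low barcodes. A further comparison took the barcodes that, thinned to 300 UMIs, held a UMI of Stab2, Gpr182, Stab1, Clec4g or Oit3 and none of Rspo3, Wnt9b, Vwf, Mecom or Nrg1, 714 high and 439 low, called sinusoidal barcodes. Both were chosen after the values had been seen.

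On UMIs outside mitochondrial genes, 10523 nuclear genes with at least 50 UMIs over both groups were measured. Of these, 311 (2.96%) were at least 2-fold higher in high barcodes and 1910 (18.2%) at least 2-fold lower, with a median log2 ratio, high over low, of -0.088. Past 2-fold, the 0.3% gate gave 162 higher (1.84%) and 546 lower genes (6.2%) out of 8812, and sinusoidal barcodes gave 69 (1.17%) and 203 (3.45%) out of 5889. A gene near the minimum of 50 UMIs can pass through the deeper low group alone, so these counts describe the 2 sums of UMIs and not a tested change.

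The highest ratios belonged to a small set of genes led by Gm42418. Gm42418 was summed to 33457 UMIs in high and 27313 UMIs in low barcodes, which is 40770 CPM (40335 to 41210) in high and 4874 CPM (4816 to 4932) in low barcodes, a log2 ratio of 3.06 (3.04 to 3.09). It is annotated as a long non-coding RNA at chr17:39846958-39848788 on the plus strand of GRCm38 (GENCODE M21). An annotated ribosomal RNA gene on the opposite strand, not analysed here, overlaps all 1831 bases of it, and AY036118, another long non-coding RNA, lies inside it on the minus strand at 39847113 to 39848035, so reads of overlapping genes may be shared. Gm26917 (log2 2.89), AY036118 (2.77) and Gm19951 (2.96) are annotated as long non-coding RNAs too. Lars2, the mitochondrial leucyl-tRNA synthetase, stood at 2906 CPM in high and 292 CPM in low barcodes (log2 3.31, 3.22 to 3.40). Cmss1, a homolog of a yeast ribosomal small subunit factor, stood at 3266 CPM in high and 373 CPM in low barcodes (log2 3.13, 3.05 to 3.21). Cdk8, the kinase of the Mediator complex, had a log2 ratio of 2.62, Camk1d, a calcium- and calmodulin-dependent kinase, 2.51, and Gphn, the scaffold protein gephyrin, 2.46. The other 3 of the 12 highest were Arhgap45, a GTPase-activating protein (1.96), Zmynd15 (1.93) and the T-box transcription factor Tbx2 (1.91). Of these 12 genes, 11 were also among the 12 highest with the 0.3% gate and 9 among those in sinusoidal barcodes. Gm42418 had a log2 ratio of 2.71 under the 0.3% gate and 2.40 in sinusoidal barcodes, and over all 17 alternatives it lay between 2.40 and 3.15.

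Counted per barcode, with no scaling to a total, these 9 genes lay close between the groups, with means in high barcodes from 0.748 times the low mean for Gphn to 1.35 times for Lars2. These means use the same summed UMIs as the levels, and mean depth outside mitochondrial genes was 7.35-fold lower in high barcodes. They thus restate the levels of genes picked for high ratios. The median barcode held 19 UMIs of Gm42418 in the high and 18 in the low group, and the mean was 25.8 in high and 22.6 in low barcodes. Over the 8 ranges the median was 27, 18, 15, 18, 21, 20, 17 and 12 UMIs. Lars2 averaged 1.84 UMIs in high and 1.36 in low barcodes, Cmss1 2.06 in high and 1.73 in low, Gm26917 2.08 in high and 2.05 in low, and Camk1d 2.17 in high and 2.79 in low barcodes. The 9 genes led by Gm42418, picked from the highest ratios, had a median of 27 UMIs in high and 27 in low barcodes. Together they took 5.93% of the UMIs outside mitochondrial genes in high and 0.756% in low barcodes. By contrast the Malat1 median was 23 UMIs in high and 69 in low barcodes, and the mean of Tmsb4x, the actin-binding thymosin beta 4, was 2.42 in high and 37.8 in low barcodes. Under the 0.3% gate the Gm42418 median was 19 UMIs in high and 17 in low barcodes, and among sinusoidal barcodes it was 24 UMIs in high and 19 in low ones. Mitochondrial UMIs had a median of 425 in high and 397 in low barcodes under the 0.3% gate, and 429 in high and 370 in low sinusoidal barcodes.

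**Figure D2:**
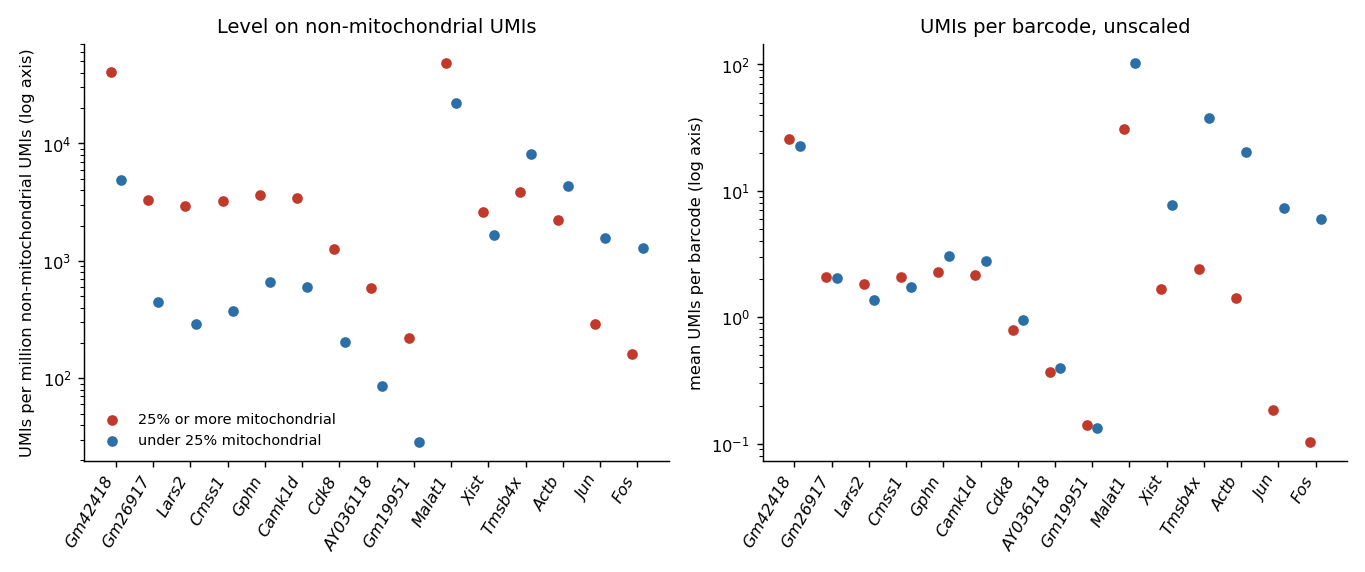
Left, level of 15 genes in CPM, UMIs per 1000000 UMIs outside mitochondrial genes (log axis) and, right, mean UMIs per barcode without scaling (log axis), in high (red) and low (blue) endothelial barcodes. The 9 genes on the left, from Gm42418 to Gm19951, stand apart in level while their counts per barcode lie close together (for Gm42418 25.8 in high and 22.6 in low barcodes), whereas Malat1, Tmsb4x, Jun and Fos had fewer UMIs per high barcode. Both panels use the same summed UMIs.

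Relative to Gm42418 the other genes of the set differed less than their levels did. All had been picked for the highest ratios, so this follows in large part from the choice. Per 100 UMIs of Gm42418 there were 7.13 UMIs of Lars2 in high and 6.001 in low barcodes, 8.01 of Cmss1 in high and 7.66 in low, and 8.07 of Gm26917 in high and 9.07 in low barcodes. Camk1d stood at 8.40 in high and 12.3 in low barcodes, and at 8.44 in both with the 0.3% gate. Gm42418 was also higher outside the endothelial gate. In B cell barcodes Gm42418 stood at 4884 CPM at 25% or more (173 UMIs of 31 barcodes) and 2176 CPM under 25%, a log2 ratio of 1.17 (0.94 to 1.38). In T cell barcodes the log2 ratio was 1.15 (0.90 to 1.39), on 140 UMIs of 11 barcodes at 25% or more. In all quality barcodes outside the endothelial gate, B and T cells among them, it stood at 19623 CPM at 25% or more and 2252 CPM under it, a log2 ratio of 3.12 (3.09 to 3.15). The cell types there were not matched: B cells were 31 of 1007 barcodes at 25% or more and 1255 of 3515 under it. Of those 1007, 24.6% held a UMI of the 6 gate genes. The differences between these ratios were not tested.

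Nuclear non-coding RNAs differed among themselves. Malat1, a long RNA kept in nuclear speckles (chr19:5795690-5802672 on the minus strand, GRCm38), stood at 48495 CPM in high and 22137 CPM in low barcodes (log2 1.13, 1.12 to 1.15), and Xist, which coats the inactive X chromosome, at 2626 CPM in high and 1670 CPM in low barcodes (log2 0.65, 0.58 to 0.72). Neat1, the scaffold of nuclear paraspeckles, stood at 212 CPM in high and 231 CPM in low barcodes (log2 -0.12, interval -0.36 to 0.11), and Kcnq1ot1, an imprinted antisense RNA, was lower in high barcodes, at 62.2 CPM in high and 126 CPM in low barcodes (log2 -1.02). Of the 10 measured genes of this list 3 were at least 2-fold higher, Malat1, Gm42418 and Gm26917. By that size 1 was lower and 6 lay between, with a median of 0.15. Among all measured genes 2.96% were higher and 18.2% lower by 2-fold or more. Long non-coding genes took 11.02% of the UMIs outside mitochondrial genes in high and 4.36% in low barcodes. Malat1 made up 4.85% in high and 2.21% in low barcodes, and Gm42418 4.08% in high and 0.487% in low barcodes.

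Genes of the sinusoid were higher in high barcodes with the rule's gate, and this difference was smaller in the other 2 comparisons, which did not match the groups. Out of 21 genes, 8 stood at least 2-fold higher and 0 lower by that size, against 2.96% higher and 18.2% lower over all genes. The median log2 ratio was 0.93, against -0.088 over all genes. Stab1, the second stabilin, stood at 1176 CPM in high and 436 CPM in low barcodes (log2 1.43, 1.32 to 1.54), and Mrc1, the mannose receptor, at 1139 CPM in high and 481 CPM in low barcodes (log2 1.25, 1.14 to 1.35). Maf, a transcription factor of sinusoidal endothelium, stood at 2987 CPM in high and 1121 CPM in low barcodes (log2 1.41, 1.35 to 1.48), and Aass, an enzyme of lysine breakdown, had the highest ratio of the list (1.73). Lyve1, a hyaluronan receptor, had 0.66, Gata4, a transcription factor that specifies the sinusoid, 0.51, and Ntn4, a netrin of the basement membrane, -0.23. With the gate at 0.3% the median was 0.35 with 1 of 21 genes at least 2-fold higher, Aass, against 1.84% of all genes. There Stab1 had 0.86, Maf 0.90, Mrc1 0.70, Lyve1 0.03 and Gata4 -0.04. In sinusoidal barcodes the median was 0.02, with 11 of 21 genes above 0 and 10 below. Past 2-fold there were 0 of 21, against 1.17% higher and 3.45% lower over all genes. Stab1, Clec4g and Oit3 of this list had helped to choose those barcodes.

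Most genes of veins and larger vessels were lower in high barcodes. In the central vein list the median was -0.78, and 9 of 11 genes had ratios below 0. By 2-fold or more 3 of 11 stood lower and 1 higher, against 18.2% lower and 2.96% higher over all measured genes. Rspo3, a Wnt enhancer secreted by central vein endothelium, stood at 669 CPM in high and 1447 CPM in low barcodes (log2 -1.11, -1.24 to -0.99). Fabp4, a fatty acid carrier, stood at 1128 CPM in high and 2137 CPM in low barcodes (-0.92, -1.02 to -0.82), and Selp, the leukocyte adhesion molecule P-selectin, at 41.4 CPM in high and 195 CPM in low barcodes (-2.23, -2.77 to -1.74). Kit, the stem cell factor receptor, went the other way, at 258 CPM in high and 107 CPM in low barcodes (1.28, 1.05 to 1.51). Under the 0.3% gate the median was -1.30, and 7 of 11 were at least 2-fold lower, against 6.2% of all genes. There Rspo3 had -1.70, Fabp4 -1.54 and Kit 0.77. In the list of large vessels and capillaries the median was -1.68; 6 of 11 genes stood lower by 2-fold or more, and Esm1, an endothelial proteoglycan, higher by that size. Vwf, von Willebrand factor, stood at 126 CPM in high and 455 CPM in low barcodes (-1.86), Nrg1, a neuregulin, at 118 CPM in high and 378 CPM in low barcodes (-1.68), and Fbln2, a matrix fibulin, at 41.4 CPM in high and 234 CPM in low barcodes (-2.50). With the gate at 0.3% the median was -1.42, Vwf had -2.45 and Fbln2 -3.16. The largest ratio of that list, -4.31 for Clu, a chaperone also made by cholangiocytes, was -0.39 with that gate and 0.23 in sinusoidal barcodes. Those barcodes still had medians of -0.65 for the central vein and -0.77 for the large vessel list, though Rspo3, Wnt9b, Vwf, Mecom and Nrg1 had been used to choose them.

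After thinning to equal depth the mix of vessel types differed. Stab2 and Gpr182 are gate genes, and the gate was applied before thinning. The sinusoidal shares and those of Stab2 therefore follow in part from the gate. With each barcode thinned to 300 UMIs outside mitochondrial genes, which left out 150 high and 0 low barcodes, 62.2% of high barcodes (59.3 to 65.0%) held a UMI of the sinusoidal genes named above and none of the vein and vessel genes, against 36.4% of low barcodes (33.7 to 39.2%). Vein and vessel genes alone were found in 8.97% of high (7.38 to 10.8%) and 24.4% of low barcodes (294 of 1206). Under the 0.3% gate the sinusoidal shares were 62.9% of high and 42.0% of low barcodes, and the vein and vessel shares 8.97% of high and 26.7% of low barcodes. Single genes had the same direction. Stab2 was found in 40.4% of high and 24.4% of low thinned barcodes (55.9% of high and 48.7% of low unthinned), and Maf in 56.6% of high and 37.5% of low barcodes. Rspo3 was found in 8.89% of high and 18.2% of low barcodes, and Vwf in 2.44% of high and 10.8% of low barcodes. In B cell barcodes under 25% the thinned shares were 0.00% for Rspo3 and Vwf and 1.35% for Maf. Flt1 was close, at 20.6% of high and 22.4% of low barcodes, and so was Oit3, a zona pellucida domain protein of the sinusoid, at 7.5% of high and 6.6% of low barcodes.

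**Figure D3:**
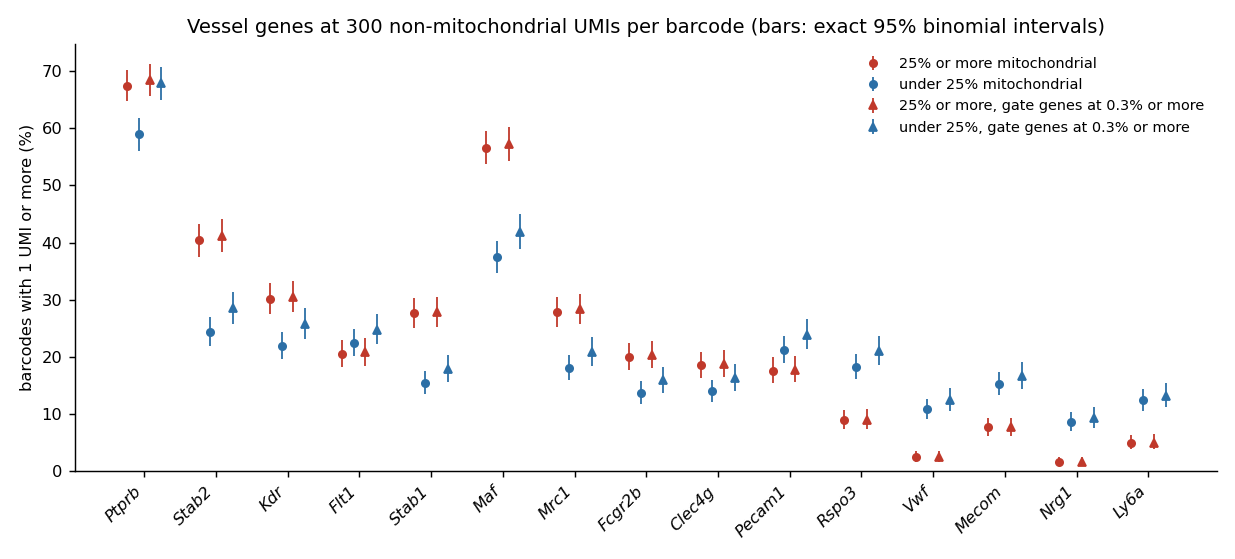
Share of endothelial barcodes with at least 1 UMI of a vessel gene after thinning each to 300 UMIs outside mitochondrial genes, in high (red) and low (blue) barcodes, with the gate of 2 UMIs (circles) and with gate genes at 0.3% or more (triangles). Bars are exact 95% binomial intervals for counting error. Stab2, Stab1, Maf and Mrc1 lie higher in high barcodes, and Rspo3, Vwf, Mecom, Nrg1 and Ly6a lie lower, with both gates. Stab2 is a gate gene, and the gate was applied before thinning.

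Genes that all endothelium shares had a median log2 ratio of 0.18, with 4 of 24 at least 2-fold higher and 0 lower. By that size 2.96% of all measured genes were higher and 18.2% lower. With the 0.3% gate the median was -0.31, so the sign of this list depends on the gate. There 0 of 24 were past 2-fold either way, against 1.84% higher and 6.2% lower over all genes. Pecam1, an adhesion molecule of endothelial junctions, stood at 597 CPM in high and 646 CPM in low barcodes (-0.11, -0.25 to 0.03), and Cdh5 at 513 CPM in high and 467 CPM in low barcodes (0.14). Erg, an ETS transcription factor of endothelium, stood at 433 CPM in high and 215 CPM in low barcodes and had a log2 ratio of 0.47 with the 0.3% gate, while Robo4, a guidance receptor of vessels, had 1.17 with the rule's gate and 0.60 with the 0.3% gate. The angiocrine and vascular receptor list followed, with a median of 0.14 and, with the 0.3% gate, -0.35. In the arterial and periportal list, Gja5, a gap junction protein of arterial endothelium, stood at 13.4 CPM in high and 55.1 CPM in low barcodes (-2.04), while Dll4, a Notch ligand, had 0.81 and, with the 0.3% gate, 0.21.

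Cytosolic ribosomal protein genes were lower in high barcodes when each group was summed as a whole. They took 4.75% of the UMIs outside mitochondrial genes in high and 9.11% in low barcodes, with a median log2 ratio of -0.997 over 81 measured genes, 38 at least 2-fold lower and 0 higher. All 81 had ratios below 0, between -1.74 for Rpl10 and -0.18 for Rpl38. With the gate at 0.3% the median was -0.72, again with 81 of 81 below 0, and in sinusoidal barcodes -0.45, with 80 of 81 below 0. The level was not even among low barcodes. With the rule's gate these genes summed to 121489 CPM under 5%, 91639 CPM from 5 to 10% and 64106 CPM from 10 to 15%. Low barcodes from 15 to 25% stood at 46793 CPM, close to the 47532 CPM of all high barcodes. The difference thus lay against the low barcodes under 15%. The 76 nuclear genes for subunits of the respiratory chain, most of whose complexes also hold mitochondrially encoded subunits, were lower too, with a median of -0.89, 31 at least 2-fold lower and 0 higher, and a median of -0.57 with the 0.3% gate. Sdhd, a complex II subunit, had -2.23 on 4 high UMIs, and Ndufs1, a complex I subunit, 0.13. Mitochondrial ribosomal protein genes had a median of -0.66, and -0.43 with the 0.3% gate. The genes of mitochondrial transcription, fusion and turnover lay near the median of all genes, at 0.10 with 1 of 20 past 2-fold, Polg, the mitochondrial DNA polymerase (1.09). Abundant cytosolic mRNAs had a median of -1.01, with 11 of 21 at least 2-fold lower, against 18.2% of all genes. With the 0.3% gate the median was -0.53, with 2 of 21 lower by that size, against 6.2% of all genes. Among them Eef1a1, the elongation factor that carries tRNA to the ribosome, stood at 1527 CPM in high and 2735 CPM in low barcodes (-0.84, and -0.69 with the 0.3% gate), and Actb, cytoplasmic actin, at 2243 CPM in high and 4333 CPM in low barcodes (-0.95, and -0.12 with the 0.3% gate).

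**Figure D4:**
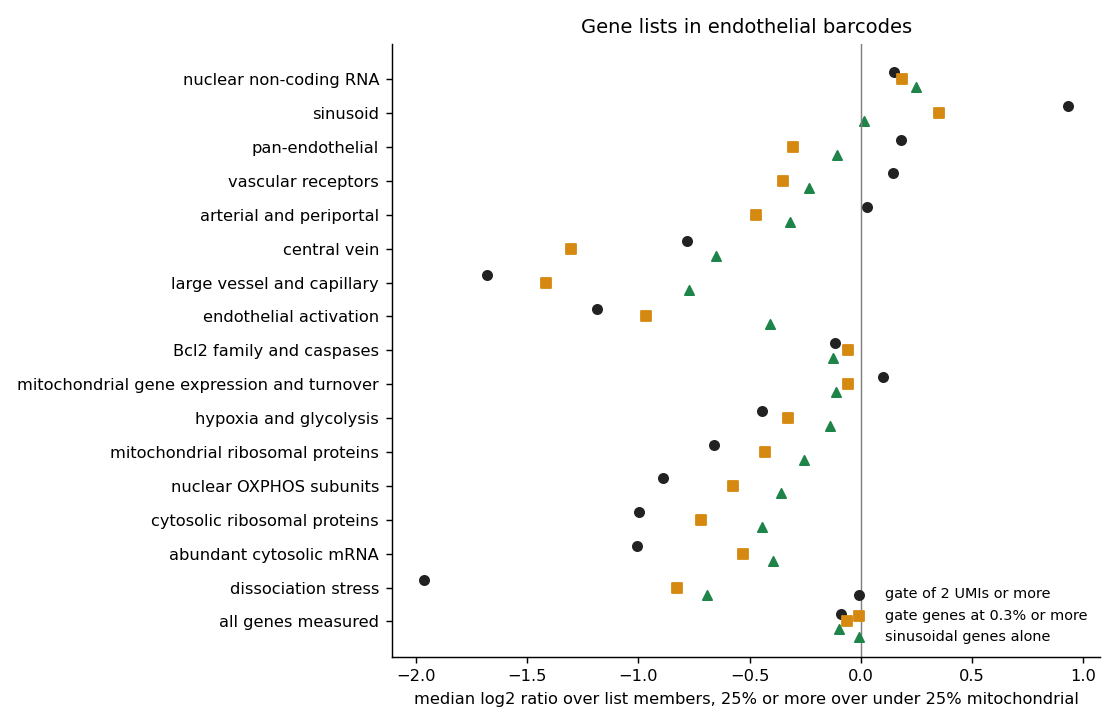
Median log2 ratio, high over low endothelial barcodes, over the measured members of 16 gene lists and over all genes measured, for the gate of 2 UMIs (circles), gate genes at 0.3% or more (squares) and sinusoidal barcodes (triangles). The sinusoid list lies at 0.93, 0.35 and 0.02, the central vein, ribosomal protein, respiratory chain and stress lists lie below 0 in all 3, and the pan-endothelial list changes sign.

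Genes with the shortest span in the genome had the lowest median ratio, though not a lower share of the UMIs in each comparison. By gene span in GENCODE M21, the shortest of 5 groups of equal size (0.374 to 9.42 kb, 2105 genes) had a median log2 ratio of -0.57 and the others had -0.15, -0.00045, 0.059 and 0.063 in order of span. Under the 0.3% gate the shortest group had -0.32 and the longest -0.030. In sinusoidal barcodes the shortest had -0.26, and the longest came next lowest at -0.10. The shortest group took 25.4% of the UMIs outside mitochondrial genes in high and 30.4% in low barcodes. With the 0.3% gate it took 25.6% in high and 25.3% in low barcodes, and among sinusoidal barcodes 26.9% in high and 25.1% in low ones.

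The early response genes induced by tissue dissociation had a median of -1.96 under the rule's gate. By 2-fold or more 24 of 27 were lower, against 18.2% of all measured genes. Jun, a subunit of the AP-1 factor, stood at 292 CPM in high and 1561 CPM in low barcodes (-2.42, -2.61 to -2.23), Fos, its partner, at 162 CPM in high and 1294 CPM in low barcodes (-3.00, -3.26 to -2.75), and Hspa1a, an inducible chaperone, at 60.9 CPM in high and 406 CPM in low barcodes (-2.74). Jun stood at 3577 CPM in the 119 barcodes under 5%, at 265 CPM from 15 to 25% and at 276 CPM from 25 to 35%, while from 25 to 27% it stood at 133 CPM on 11 UMIs and from 23 to 25% at 299 CPM on 27 UMIs. Under the 0.3% gate the median was -0.83, with 13 of 27 at least 2-fold lower, against 6.2% of all genes. There Jun had -0.59 and Fos -1.44. At 300 UMIs per barcode Jun was found in 8.45% of high (6.91 to 10.2%) and 11.3% of low barcodes (9.55 to 13.2%), intervals that overlap.

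Genes of cell death lay near the median of all genes. In the list of the Bcl2 family and caspases 4 of 22 genes were at least 2-fold lower, 0 higher, and the median was -0.12; the share lower by that size over all measured genes was 18.2%. Bax, a pore former of the outer mitochondrial membrane, stood at 105 CPM in high and 95.3 CPM in low barcodes (0.14, -0.21 to 0.47), Bcl2, its inhibitor, at 129 CPM in high and 112 CPM in low barcodes (0.21). Apaf1, the scaffold of the apoptosome, stood at 204 CPM in high and 112 CPM in low barcodes (0.86, 0.60 to 1.11). Of the 10 measured p53 targets 0 were at least 2-fold higher and 2 at least 2-fold lower, with a median of 0.39 and Mdm2, the p53 ubiquitin ligase, at 80.4 CPM in high and 79.2 CPM in low barcodes. The lists of hypoxia and glycolysis (median -0.45, 5 of 16 lower and 0 higher), of endothelial activation (-1.18, 7 of 12 lower and 0 higher) and of proliferation (-0.42, 2 of 13 lower and 0 higher) had medians of -0.33, -0.96 and 0.11 with the 0.3% gate. The list of the mitochondrial stress response had a median of -0.39, and 0.24 with the 0.3% gate. The proliferation list has 7 measured genes under the 0.3% gate, where Stmn1, a microtubule regulator, had 0.22, against -1.75 under the rule's gate.

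The 12 lowest ratios under the rule's gate lay between -4.89 and -3.84 and included those of Ramp1, Bicc1, Clu, Atf3, Lcn2, Pak1, Creb5, Rbm47, Epha7, Csf2ra and Rab27b. Ramp1, a subunit of neuropeptide receptors, had 1 UMI in high and 203 in low barcodes (log2 interval -10.20 to -2.40), and Atf3, a stress-induced transcription factor, 27 UMIs in high and 3503 in low barcodes. Of these 12, 0 were among the 12 lowest under the 0.3% gate, which were Npr3, the natriuretic peptide clearance receptor (-3.46), Col8a1, a vascular collagen (-3.26), Gja5 (-3.22), Fbln2 (-3.16), Cd200, an immune ligand (-2.84), Selp (-2.82), Ncam1, an adhesion molecule (-2.72), the protocadherin Pcdh9 (-2.62), and Tgfb2, a growth factor of the vessel wall (-2.54), beside Prss23 (-3.34), Samd5 (-2.59) and the monooxygenase Fmo2 (-2.45). Under the rule's gate the ratios of these 12 lay between -2.92 (Prss23) and -1.99 (Cd200).

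Several transcripts of other cells, for secreted and plasma cell proteins, were a larger part of the UMIs in high than in low barcodes. Haemoglobin was a smaller part of the summed UMIs. Alb, serum albumin, stood close, at 802 CPM in high and 760 CPM in low barcodes. Apoa1 and Apoa2, apolipoproteins of hepatocytes, were both higher in high barcodes, Apoa1 at 135 CPM in high and 16.8 CPM in low barcodes (log2 3.01) and Apoa2 at 158 CPM in high and 23.6 CPM in low barcodes (2.75), and 7 of 13 hepatocyte genes stood higher by 2-fold or more and 3 lower by that size. The list summed to 1832 CPM in high and 1562 CPM in low barcodes, and under the 0.3% gate to 1849 CPM in high and 399.9 CPM in low barcodes. In all, 52 high and 12 low barcodes drew over 1% of their UMIs from the list, and all 15 markers had UMIs in both groups. Per barcode the list averaged 1.16 UMIs in high and 7.26 in low barcodes with the rule's gate, and 1.15 UMIs in high and 1.41 in low barcodes with the 0.3% gate. Igkc, the immunoglobulin kappa constant chain, stood at 799 CPM in high and 133 CPM in low barcodes, and averaged 0.51 UMIs per high and 0.62 per low barcode. Jchain, the joining chain of secreted antibodies, had a log2 ratio of 3.02. Of the 4 measured plasma cell genes 3 were at least 2-fold higher and 1 at least 2-fold lower (-2.58). Over all measured genes these shares were 2.96% higher and 18.2% lower. Hbb-bs, an adult haemoglobin chain, stood at 3382 CPM in high and 5581 CPM in low barcodes (-0.72), and 207 high and 46 low barcodes drew over 1% of their UMIs from erythroid genes, whose median was 3 UMIs in high and 3 in low barcodes. Over the 8 ranges the hepatocyte list, with the 0.3% gate, stood at 374, 241, 465, 704, 1039, 1947, 3400 and 8617 CPM. The part of such transcripts in the other ratios was not tested.

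**Figure D5:**
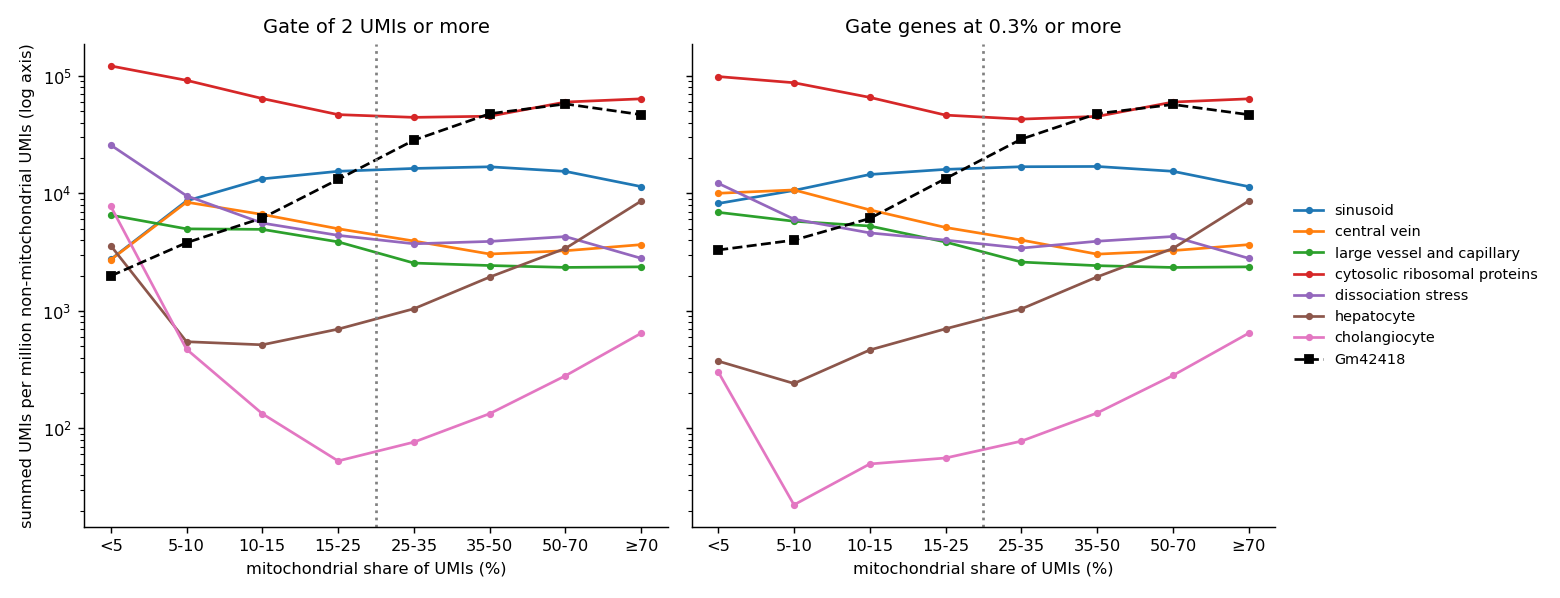
Summed level of 7 gene lists and of Gm42418, in CPM, UMIs per 1000000 UMIs outside mitochondrial genes (log axis), over 8 ranges of mitochondrial share, with the gate of 2 UMIs (left) and with gate genes at 0.3% or more (right); the dotted line marks 25%. Gm42418 climbs to 57660 CPM from 50 to 70% on the left, the sinusoid list stays between 15384 and 16834 CPM from 15 to 70% there, and the cholangiocyte list is high under 5% on the left (7766 CPM).

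Among the high barcodes themselves the summed vessel lists varied less than Gm42418 did. With the rule's gate, from 25 to 35%, from 35 to 50% and from 50 to 70%, the sinusoid list stood at 16300, 16834 and 15384 CPM, the central vein list at 3931, 3047 and 3249 CPM, and the large vessel list at 2552, 2432 and 2344 CPM. Ribosomal protein genes stood at 44344, 45362 and 59878 CPM in these ranges, so their lowest levels were not at the highest mitochondrial share. Gm42418 stood at 28366, 47638 and 57660 CPM, and Vwf at 183, 98 and 42 CPM. Below the limit, Gm42418 stood at 1983, 3805, 6169 and 13142 CPM in the ranges under 5, 5 to 10, 10 to 15 and 15 to 25%, and Stab2 at 106, 601, 1247 and 1705 CPM, so these levels already differed among the low barcodes.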

How the data were processed

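Droplet 3′ libraries (10x Chromium v3) were deposited as UMI counts per gene and barcode; per the file headers they come from Cell Ranger 7.1.0. The submitters' processing notes also name fastp, Trimmomatic, Seurat, edgeR and mm10, with no role; the method of cell calling: not given in the sources used here. Library totals were 37709972 UMIs over 9871 barcodes; the high barcodes held 820619 and the low 5604052 UMIs outside mitochondrial genes. Counts were read with Python 3.11.15 and scipy 1.17.1. UMIs were summed over each group and divided by its UMIs outside mitochondrial genes. Levels carry exact Poisson intervals, ratios exact conditional intervals and shares exact (Clopper-Pearson) binomial intervals, all at 95% and for counting error only. A gene was measured with 50 UMIs over both groups; a count of 0 was set to 3 UMIs over the group, 3.66 CPM in high and 0.535 CPM in low barcodes. For shares, barcodes were thinned to 300 UMIs. No doublets were removed from the main result; an alternative left out the 395 highest Scrublet scores (scanpy 1.11.5), of which Scrublet's own threshold called 88. All 10523 measured genes matched GENCODE M21. Named genes are list members, gate genes, mitochondrial mRNAs and the 12 highest and 12 lowest ratios among genes with 200 UMIs or more, in 5% of either group and of the same direction with equal weights. The members, the 32 gene lists and the gate were chosen with earlier results of these data known. The gate at 0.3%, the sinusoidal barcodes, the removal of barcodes rich in another class and the scaling without the 9 genes led by Gm42418 were added after seeing the data, as were the 9 genes and those followed over ranges. The ratio calculation was tested on simulated data. Some genes that the naming rule chose are not reported here.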

Additional observations from a re-analysis of the deposited data

How the results depend on the processing

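With 1 library no replicate could be left out. No paired analysis was possible because the groups compared are barcodes of 1 library. Of 17 alternatives, 4 were added after seeing the data. The depth of high barcodes (529 UMIs) limits single genes of low level; a p-value could not be had. Across them the 12 main values stayed within their interval, or within 1.5 times for counts, in 126 cases and moved in 62. The cause was not tested.

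The share of barcodes in the gate, high and low, was 52.8% and 31.3% with the boundary at 40%, 40.7% and 23.05% with 4 gate UMIs, 48.8% and 16.0% after thinning, and 66.9% and 46.8% with barcodes rich in another class left out of both counts; the low share was 22.97% with the boundary at 20%, and the high share 63.9% with 500 UMIs outside mitochondrial genes. Genes at least 2-fold higher and lower were 194 and 1070 with 4 gate UMIs, 137 and 504 after thinning, 162 and 546 with the gate at 0.3%, 69 and 203 in sinusoidal barcodes, 186 and 1196 with equal weights and 139 and 814 with 200 UMIs per gene; 5934 were higher with a minimum of 1 UMI, and 1030 lower without barcodes rich in another class.

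The sinusoid median was 0.73 with the boundary at 40%, 0.61 with 4 gate UMIs, 0.30 after thinning, 0.35 with the gate at 0.3%, 0.015 in sinusoidal barcodes, 0.26 with equal weights and 0.63 without barcodes rich in another class. In the same order, without the boundary at 40%, the pan-endothelial median, 0.18 as reported, was -0.064, -0.29, -0.31, -0.11, -0.22 and -0.082, below 0 in all 6, and the stress median was -1.53, -0.75, -0.83, -0.69, -1.10 and -1.47. The central vein median was -1.08, -1.27 and -1.30 with 4 gate UMIs, after thinning and with the gate at 0.3%, and -1.06 without barcodes rich in another class. The large vessel median was -0.77 in sinusoidal barcodes and -0.47 with a minimum of 1 UMI. Ribosomal proteins had -0.77 with the boundary at 40%, -0.75 after thinning, -0.72 with the gate at 0.3%, -0.45 in sinusoidal barcodes, -0.41 with equal weights and -1.14 with 500 UMIs outside mitochondrial genes. Abundant cytosolic mRNAs had -0.82 with the boundary at 40%, -0.57 after thinning, -0.53 with the gate at 0.3%, -0.39 in sinusoidal barcodes and -0.35 with equal weights. Respiratory chain subunits had -0.36 in sinusoidal barcodes and -0.36 with equal weights.

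Sign changes of values past 2-fold were those of Gdf15 (0.026 with the boundary at 40%, on 0 high UMIs as reported), the dendritic list (0.35 with 200 UMIs per gene), Stmn1 (0.22 with the gate at 0.3%) and, in sinusoidal barcodes, Adam23 (-0.22), Clu (0.23), Esm1 (-0.51) and Notch4 (-0.15). Scaling by the median of ratios moved the median of all genes to -0.0077.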
